A study of Mus musculus with 4 samples.

Results

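The genes described here set the pace of the G1 phase of the cell cycle. They are the D-type cyclins Ccnd1, Ccnd2 and Ccnd3, the E-type cyclin Ccne1, the cyclin-dependent kinases Cdk2, Cdk4 and Cdk6, the kinase inhibitors Cdkn1b (p27) and Cdkn2c (p18), and the retinoblastoma gene Rb1. Members were taken by symbol from a list, and all 10 of the 10 listed genes were present among the 12067 genes of the count table. D-type cyclins are made in response to growth signals and activate Cdk4 and Cdk6, which phosphorylate the Rb protein and so release the E2F transcription factors. E2F factors raise cyclin E and the enzymes of DNA replication, cyclin E with Cdk2 completes the phosphorylation of Rb, and p27 and p18 hold the kinases back. In blood formation, Cdk6 and the D-type cyclins are known for the expansion of progenitors, and p18 and p27 for keeping stem and progenitor cells from dividing.

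Gene expression was measured by Quant-seq, which sequences the 3′ ends of messenger RNAs, in KL cells, the Lin- cKit+ Sca-1- myeloid progenitors of mouse bone marrow. The BcorΔE9-10 group (n = 2 libraries) came from Bcor fl/y donors carrying scl-Cre-ERT, in which tamoxifen activates Cre in haematopoietic stem cells and removes exons 9 and 10 of Bcor, a part of the PRC1.1 Polycomb complex, so that a truncated protein is made at a low level. The BcorWT group (n = 2 libraries) came from Bcor fl/y donors whose labels list no Cre, so both groups carry the floxed allele and Cre itself differs between them. Donors of both groups received 5 mg of tamoxifen over 5 days at an age of 3 to 6 months, only male animals were used for molecular work, and female recipients were irradiated with 5.5 Gy. Whole bone marrow was transplanted into Ptprca recipients, whose CD45.1 marker separates their own cells from donor cells, and donor-derived KL cells were sorted 20 weeks later. The comparison bears on whether Bcor-mutant progenitors have a changed proliferative capacity. Nothing in the labels says whether replicates came from separate donors or recipients, so p-values measure the spread between these libraries, which may be technical.

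Library totals lay between 3825289.5 and 6253100.5 counts, and 3 counts corresponded to 0.489 to 0.876 CPM, the counts scaled to a common library size. Levels are given as CPM with TMM scaling, and fold changes as log2 of BcorΔE9-10 over BcorWT with standard error (SE) from edgeR's quasi-likelihood test, positive where the mutant was higher. The non-coding RNA Gm42418 took 27.88% of the counts of BcorWT replicate 1, 1.435% of BcorWT replicate 2, and 16.32% and 14.31% of the mutant libraries. The BcorWT libraries were also the least alike of the 6 library pairs (Pearson r of log2 CPM across genes 0.893, against 0.947 between the mutant libraries). Bcor itself had 104 and 113 counts in the mutant and 58 and 79 in BcorWT libraries, which does not test the deletion because 3′ counts lie outside exons 9 and 10. All 10 listed KL progenitor markers were present, at summed levels of 10890 and 8280 CPM in mutant and 11170 and 11220 CPM in BcorWT libraries. Of these markers 7 were lower and 3 higher in the mutant, with a median log2 fold change of -0.235. For 2 of them both mutant libraries were lower than both BcorWT libraries, as for 17.1% of all genes.

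Among the promoter windows of the members, that of Cdk4 stood out for its sequence. Windows from 250 bases before to 50 after the start were taken from RefSeq (GRCm38.p6) and matched 7 of the 10 members with 9 windows. Ccnd1, Ccnd2 and Rb1 are named only. The windows of Cdk4, of its paralog Cdk6 and of Cdk2 are printed 5′ to 3′ on the gene's strand, with motif matches in capitals: the E-box CACGTG, which reads the same on both strands and is bound by Myc with Max, and the E2F letters TTTGGCGC, TTTCCCGC, TTTGCCGC and TTTCGCGC on either strand.
Cdk4, chr10:127063285-127063584, plus strand: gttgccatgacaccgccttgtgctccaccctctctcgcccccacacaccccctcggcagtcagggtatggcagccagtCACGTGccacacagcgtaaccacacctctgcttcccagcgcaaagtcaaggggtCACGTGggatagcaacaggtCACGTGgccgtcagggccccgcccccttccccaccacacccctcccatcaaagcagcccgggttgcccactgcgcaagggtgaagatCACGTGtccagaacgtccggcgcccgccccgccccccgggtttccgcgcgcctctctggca
Cdk6, chr5:3343643-3343942, plus strand: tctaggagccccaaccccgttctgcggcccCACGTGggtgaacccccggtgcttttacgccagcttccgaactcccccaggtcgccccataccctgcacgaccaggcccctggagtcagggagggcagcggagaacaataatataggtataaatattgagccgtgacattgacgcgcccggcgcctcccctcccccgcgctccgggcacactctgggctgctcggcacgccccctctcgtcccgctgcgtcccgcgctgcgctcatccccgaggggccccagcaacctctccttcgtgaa
Cdk2, chr10:128705002-128705301, minus strand: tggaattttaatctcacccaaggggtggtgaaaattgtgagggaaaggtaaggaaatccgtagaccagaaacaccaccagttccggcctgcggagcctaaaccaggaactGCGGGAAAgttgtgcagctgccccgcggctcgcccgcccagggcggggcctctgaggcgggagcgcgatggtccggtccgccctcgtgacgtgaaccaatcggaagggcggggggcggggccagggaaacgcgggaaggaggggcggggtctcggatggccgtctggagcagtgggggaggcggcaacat
The Cdk4 window held 4 E-boxes and the Cdk6 window 1. Of 32851 mouse promoter windows of the same length, 7.15% held at least 1 E-box and 8 windows (0.0244%) held at least 4. One of the pair of Cdkn2c windows held 1 E-box as well, and the remaining member windows held none. The Cdk2 window had 1 match to the E2F letters, read on the opposite strand, which 2.26% of all windows had. A match is a description of the letters in the window and not a bound site. Any relation of a match to the level of a gene was not tested.

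Across the members, no gene passed an adjusted p of 0.05 in edgeR's test, where 2 of the 12067 genes tested did (0.0166%). At an unadjusted p under 0.05, 1 of 10 members was counted, Cdk4, against 4.42% of all genes. Of the 10 members 5 were higher and 5 lower in the mutant, with a median log2 fold change of 0.002 and a range from -0.92 to 0.68; over all genes the median was -0.03. The groups of libraries did not overlap for 1 member with the mutant higher, Cdkn2c, and for 2 with the mutant lower, Cdk4 and Ccnd2. Among all genes, 16.8% did not overlap with the mutant higher and 17.1% with the mutant lower. For 8 of the 10 members, the gap between the BcorWT libraries was larger than the fitted difference between genotypes, as it was for 68.3% of all genes. The gap between BcorWT libraries exceeded that between mutant libraries for 7 of 10 members, against 67.6% of all genes.

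**Figure D1:**
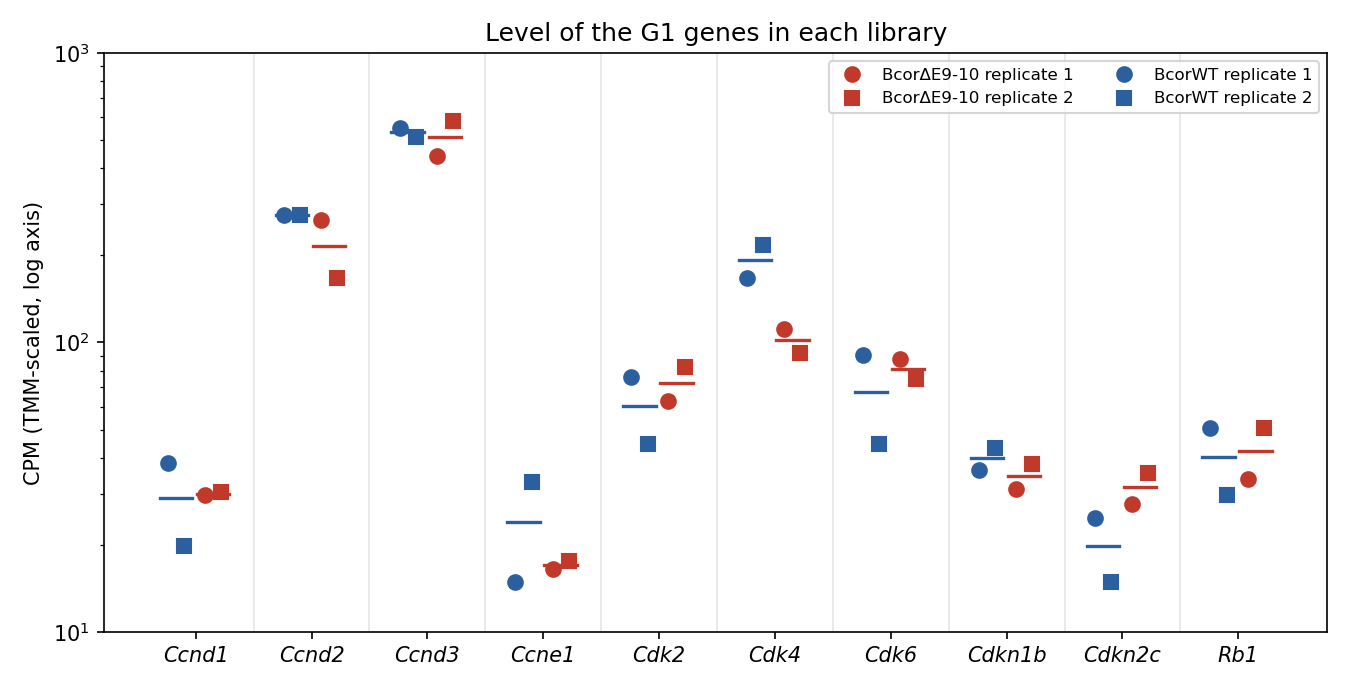
Level of each G1 gene (CPM, TMM-scaled, log axis) in the 2 BcorWT libraries (blue) and 2 BcorΔE9-10 libraries (red), with circles for replicate 1, squares for replicate 2 and a bar at each group mean. Both red points of Cdk4 (111.1 and 92.26 CPM) sit under both blue points (167.6 and 217.2 CPM), while most other genes overlap.

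Cdk4 was the member with the largest difference. It lies at chr10:127063534-127067920 on the plus strand (GRCm38, as for all gene positions here) and encodes the kinase that, with a D-type cyclin, begins the phosphorylation of Rb. Its level was 111.1 and 92.26 CPM in the mutant libraries (601 and 566 counts) and 167.6 and 217.2 CPM in the BcorWT libraries (574 and 1154 counts). Both mutant libraries were therefore lower than both BcorWT libraries. The means were 101.7 ± 13.3 and 192.4 ± 35.03 CPM (SD, n = 2 each), a ratio of 0.528. The log2 fold change was -0.92 with an SE of 0.33 and a 95% interval from -1.68 to -0.17. In edgeR's test the unadjusted p was 0.0228 and the adjusted p, over all genes, 0.945, so that Cdk4 did not pass. With any 1 library left out the log2 fold change stayed between -1.10 and -0.72. Adjusted p ranged from 0.051, without BcorWT replicate 1, to 1.0 across the alternatives tried with edgeR and other tools. The unadjusted p in edgeR's test rose to 0.117 without mutant replicate 1 and to 0.233 without mutant replicate 2.

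Cdk6 (chr5:3341485-3531008, plus strand), the paralog that binds the same D-type cyclins, showed another pattern. Cdk6 was measured at 87.6 and 74.66 CPM in the mutant and at 90.53 and 44.41 CPM in BcorWT libraries. Both mutant values lay between the BcorWT values, which were 1.03 log2 units apart. For Cdk6 the log2 fold change was 0.27 (SE 0.40, 95% interval -0.65 to 1.19, adjusted p 0.961 in edgeR's test). Without BcorWT replicate 2 it was -0.16 and without BcorWT replicate 1 it was 0.87, so the direction rested on 1 library.

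Because Cdk4 and Cdk6 share partners, the counts of Cdk6 were also set against the sum of both within each library, a ratio that does not depend on scaling. It compares libraries and does not give the relative abundance of the proteins. Cdk6 made up 44.09% (95% Wilson interval 41.15 to 47.08) and 44.73% (41.71 to 47.79) of Cdk4 and Cdk6 counts in the mutant libraries. In BcorWT libraries it made up 35.07% (31.99 to 38.27) and 16.98% (15.1 to 19.04), where intervals and floors cover counting error only. The mutant libraries were close together and above both BcorWT libraries, whose own values were far apart. Group means were 44.41% ± 0.448 and 26.02% ± 12.79 (SD, n = 2 each), a difference of 18.39 percentage points, with a two-sided exact permutation p of 0.333. That is the smallest p that 2 libraries against 2 can give, so the design cannot reach 0.05 here. Without BcorWT replicate 2 the difference was 9.34 points and without BcorWT replicate 1 it was 27.43 points. Over the 6 shares compared for these genes, the Benjamini-Hochberg adjusted permutation p was 1.0 for each.

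**Figure D2:**
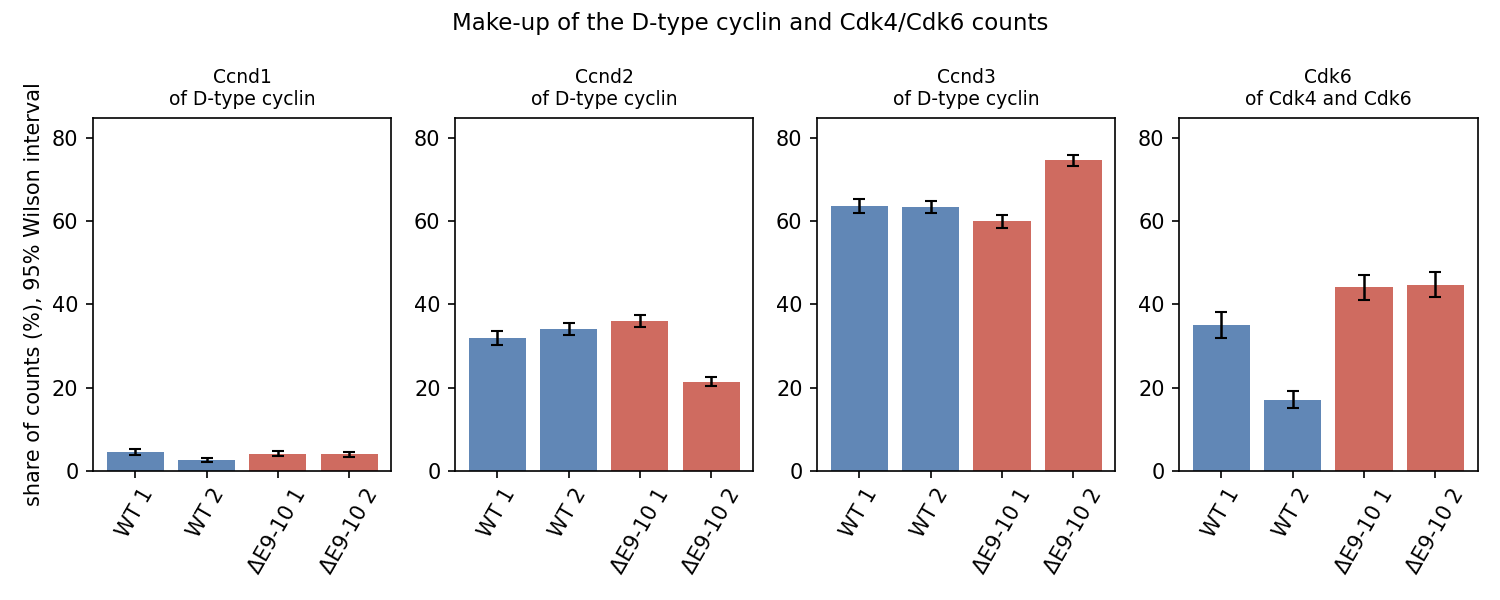
Share of counts (%) within each library, with 95% Wilson intervals as error bars, for each D-type cyclin among the D-type cyclins and for Cdk6 among Cdk4 and Cdk6, in the 2 BcorWT (blue) and 2 BcorΔE9-10 (red) libraries. Cdk6 reached 44.09% and 44.73% in the mutant libraries against 35.07% and 16.98% in BcorWT, and the Ccnd2 share of mutant replicate 2 (21.44%) stands under the other libraries.

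Cdk2 (chr10:128697939-128705031, minus strand), the partner of cyclin E and cyclin A, was measured at 62.65 and 82.32 CPM in mutant and at 76.22 and 44.6 CPM in BcorWT libraries. The groups overlapped, and the largest gap was again between BcorWT libraries. Between genotypes, the log2 fold change was 0.27 (SE 0.37, 95% interval -0.59 to 1.12, adjusted p 0.96 in edgeR's test). Leaving out 1 library gave values from -0.07 to 0.70.

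Among the D-type cyclins, Ccnd2 (chr6:127125162-127152193, minus strand), which responds to cytokines and to Myc in blood progenitors, was the one whose groups did not overlap. Its level was 264.5 and 167.2 CPM in the mutant and 275.4 and 275.3 CPM in BcorWT libraries. The BcorWT libraries were nearly equal and mutant replicate 1 lay just under them, so that most of the difference came from mutant replicate 2. Its log2 fold change was -0.35 (SE 0.35, 95% interval -1.16 to 0.46, adjusted p 0.945 in edgeR's test), and -0.06 when mutant replicate 2 was left out.

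Ccnd1 (chr7:144929931-144939925, minus strand), the cyclin of adhesion and growth factor signals, had 29.76 and 30.32 CPM in mutant and 38.26 and 19.76 CPM in BcorWT libraries. The mutant libraries were nearly equal and lay between the BcorWT libraries, with means of 30.04 ± 0.399 and 29.01 ± 13.08 CPM (SD, n = 2 each). This gave a log2 fold change of 0.06 (SE 0.39, 95% interval -0.84 to 0.96, adjusted p 0.994 in edgeR's test).

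The counts of Ccnd3, the third D-type cyclin, were nearly equal to those of a neighbouring gene in every library. The level of the Ccnd3 entry was 440.8 and 582.6 CPM in mutant and 550.2 and 512.8 CPM in BcorWT libraries, with a log2 fold change of -0.05 (SE 0.33, 95% interval -0.82 to 0.71, adjusted p 0.993 in edgeR's test). The mutant values lay on either side of the BcorWT values. At its 3′ end, Ccnd3 (chr17:47505051-47599691, plus strand) shares 361 exonic bases, from 47599331 to 47599691, with Bysl on the opposite strand, which encodes bystin, a factor of ribosome assembly. Bysl had 2347 and 3497 counts in mutant and 1815 and 2729 counts in BcorWT libraries, between 96.34% and 100.1% of the Ccnd3 count. Of 737 gene pairs that meet tail to tail with overlapping ends, 25 (3.39%) had counts within 5% of each other in all 4 libraries. Whether reads were counted by strand is not given in the sources used here, and whether the same reads entered the counts of Ccnd3 and Bysl was not tested.

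**Figure D3:**
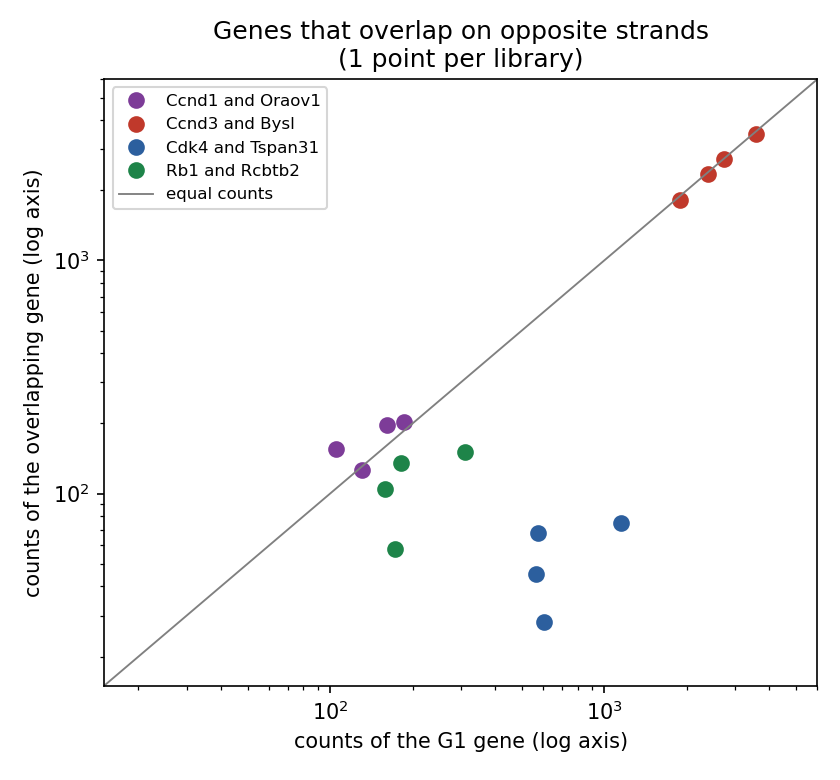
Counts of 4 G1 genes (horizontal, log axis) against those of the gene that overlaps each on the opposite strand (vertical, log axis), with 1 point per library and a line of equal counts. The points of Ccnd3 and Bysl lie on the line, at 96.34% to 100.1%, and those of Cdk4 and Tspan31 far under it, at 4.659% to 11.85%.

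Cdk4 meets Tspan31, a tetraspanin gene, in the same way over 641 exonic bases from 127067280. Tspan31 had 28 and 45 counts in mutant and 68 and 75 in BcorWT libraries, at most 11.85% of the Cdk4 count. It was itself lower in both mutant libraries (log2 fold change -1.43, SE 0.44, unadjusted p 0.0127 and adjusted p 0.945 in edgeR's test). When its counts were subtracted from those of Cdk4, the log2 fold change of Cdk4 was -0.88 and the difference in Cdk6 share 18.06 percentage points. The subtraction takes every Tspan31 count as also counted for Cdk4, which is an assumption. Ccnd1 overlaps Oraov1 over 1100 exonic bases and Rb1 overlaps Rcbtb2 over 488. Oraov1 had 196 and 203 counts in mutant and 126 and 155 in BcorWT libraries, as many as Ccnd1 or more in 3 of 4 libraries. Rcbtb2 had 135 and 151 counts in mutant and 58 and 105 in BcorWT libraries. These partner genes were chosen after the values were seen, and whether their reads entered the counts of Cdk4, Ccnd1 and Rb1 was not tested.

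The make-up of the D-type cyclin counts did not separate the groups. Ccnd2 took 35.98% and 21.44% of them in the mutant and 31.88% and 34.08% in BcorWT libraries, a difference in means of -4.27 points (two-sided exact permutation p = 1.0) that was 3.003 points without mutant replicate 2 and -11.54 points without mutant replicate 1. Ccnd1 took 4.048% and 3.886% in the mutant and 4.429% and 2.446% in BcorWT libraries (difference 0.53 points, exact permutation p = 1.0, and -0.46 points without BcorWT replicate 2). With Ccnd3 left out, because of its overlap with Bysl, Ccnd2 took 89.89% and 84.65% in the mutant and 87.8% and 93.3% in BcorWT libraries. That difference was -3.28 points (exact permutation p = 0.667), or -0.67 without mutant replicate 2, -0.53 without BcorWT replicate 2, -5.90 without mutant replicate 1 and -6.03 without BcorWT replicate 1.

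Ccne1 (chr7:38097984-38107534, minus strand), the cyclin that activates Cdk2 at the end of G1, differed more between the BcorWT libraries than between genotypes. It had 89 and 108 counts in mutant and 51 and 175 in BcorWT libraries, or 16.45 and 17.61 against 14.89 and 32.93 CPM. The mutant libraries were close together while the BcorWT libraries were far apart (-1.145 on the log2 scale, replicate 1 over replicate 2). The fitted log2 fold change was -0.50 (SE 0.44, 95% interval -1.52 to 0.52, adjusted p 0.945 in edgeR's test), and 0.19 without BcorWT replicate 2.

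Of the inhibitors, Cdkn2c (chr4:109660876-109667189, minus strand), whose product p18 binds Cdk4 and Cdk6 and keeps D-type cyclins from them, was higher in both mutant libraries than in both BcorWT libraries. Cdkn2c had 27.72 and 35.37 CPM in mutant and 24.82 and 14.87 CPM in BcorWT libraries (150 and 217 against 85 and 79 counts). Mutant replicate 1 lay close above BcorWT replicate 1. The means were 31.55 ± 5.41 and 19.84 ± 7.04 CPM (SD, n = 2 each), a ratio of 1.6. The log2 fold change was 0.68 (SE 0.38, 95% interval -0.20 to 1.55), with an unadjusted p of 0.111 and an adjusted p of 0.945 in edgeR's test, so that Cdkn2c did not pass. It stayed between 0.35 and 1.08 with any 1 library left out, and adjusted p was 0.0894 without BcorWT replicate 1, the lowest of the alternatives.

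Cdkn1b (chr6:134920401-134925513, plus strand), whose product p27 inhibits cyclin E with Cdk2, was measured at 31.23 and 38.14 CPM in mutant and 36.21 and 43.28 CPM in BcorWT libraries. The groups overlapped, and this was the member whose gaps between replicates were most alike in both groups. Cdkn1b had a log2 fold change of -0.20 (SE 0.32, 95% interval -0.93 to 0.54, adjusted p 0.962 in edgeR's test). It was -0.35 without mutant replicate 2, -0.32 without BcorWT replicate 1 and -0.06 without mutant replicate 1 or BcorWT replicate 2. Rb1 (chr14:73183673-73325822, minus strand), the substrate of the G1 kinases, was measured at 33.64 and 50.53 CPM in mutant and 50.52 and 29.73 CPM in BcorWT libraries. Both groups spanned nearly the same range. Rb1 had a log2 fold change of 0.07 (SE 0.39, 95% interval -0.82 to 0.97, adjusted p 0.989 in edgeR's test).

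**Figure D4:**
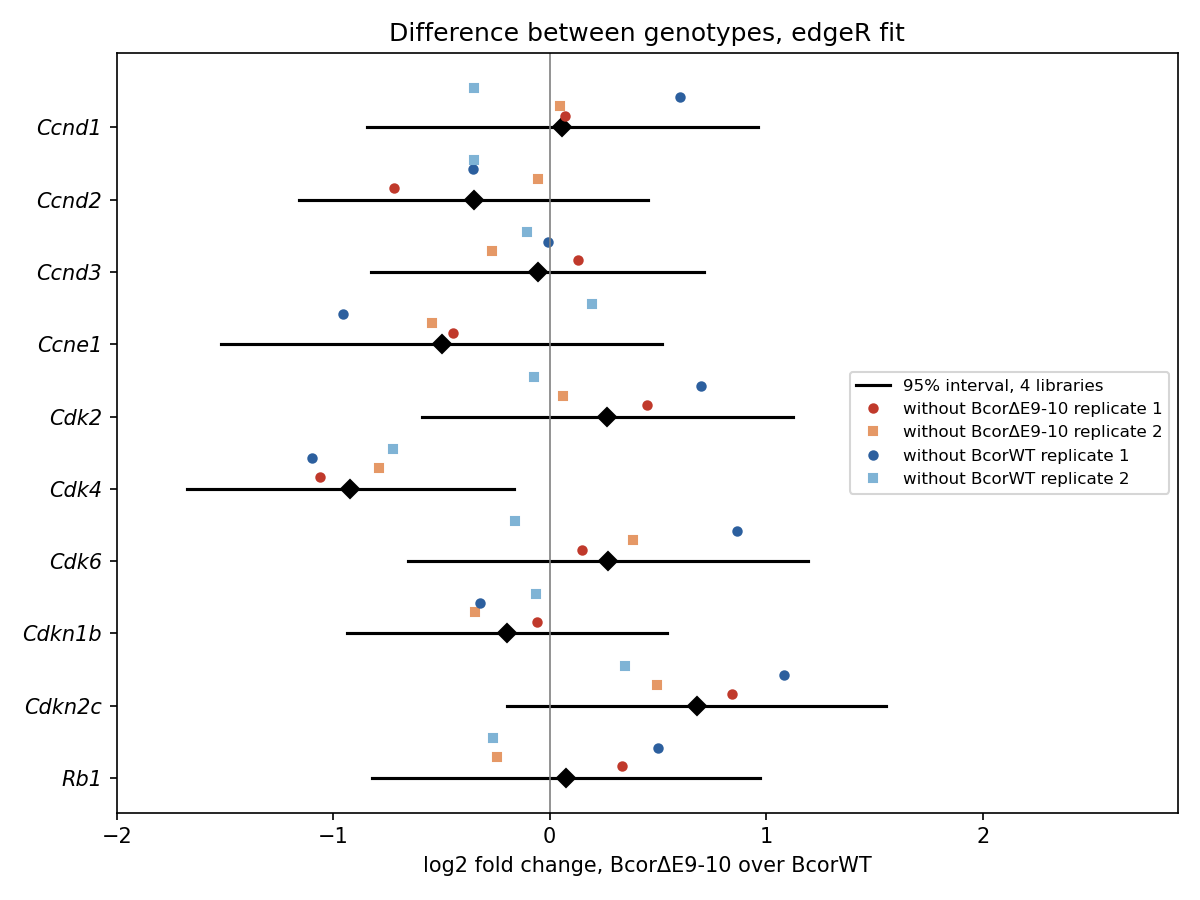
Log2 fold change of BcorΔE9-10 over BcorWT for each G1 gene, with diamonds and lines for the estimate and 95% interval from 4 libraries and coloured points for the estimates with 1 library left out. The interval of Cdk4 (-1.68 to -0.17) is the one that does not include 0, and 6 genes have points on both sides of 0.

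For 6 of the 10 members, Ccnd1, Ccnd3, Ccne1, Cdk2, Cdk6 and Rb1, the direction changed when 1 library was left out. Cdk4, Ccnd2, Cdkn1b and Cdkn2c kept theirs. Cdk4 aside, each 95% interval held values in both directions.

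Other regulators of the step from G1 to S were read as a fixed list of 30 genes, of which 27 were in the table; Cdkn1c, Cdkn2a and Cdkn2b were not analysed here. None of the 27 passed adjusted p in edgeR's test and 1 had an unadjusted p under 0.05. By direction 20 were higher and 7 lower, with a median log2 fold change of 0.23 and a range from -1.0 to 0.98. Over all genes, 4.42% had an unadjusted p under 0.05, 47.7% were higher and the median was -0.03. The 1 gene was Cdkn1a, which encodes p21, an inhibitor of Cdk2 and a target of p53. Cdkn1a had 33.45 and 23.8 CPM in mutant and 14.02 and 14.87 CPM in BcorWT libraries (181 and 146 against 48 and 79 counts). Both mutant libraries lay above both BcorWT libraries, with means of 28.63 ± 6.825 and 14.44 ± 0.6001 CPM (SD, n = 2 each). The log2 fold change was 0.98 (SE 0.36, 95% interval 0.15 to 1.81), with an unadjusted p of 0.026 and an adjusted p of 0.945 in edgeR's test. It stayed between 0.72 and 1.21 with any 1 library left out, but the unadjusted p in edgeR's test rose to 0.282 without mutant replicate 1 and to 0.0622 without mutant replicate 2. Cdkn2d, a relative of Cdkn2c that encodes p19, overlapped between groups (126.8 and 182.4 against 141.3 and 296.0 CPM).

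Of these 27 genes, 8 were higher and 4 lower in the mutant without overlap between groups, against 16.8% and 17.1% of all genes. The relatives of Rb1 were higher in both mutant libraries than in both BcorWT libraries, and neither passed the test. Rbl1 (p107) had 41.4 and 50.21 CPM in mutant and 35.92 and 19.19 CPM in BcorWT libraries, a log2 fold change of 0.74 (SE 0.39, unadjusted p 0.0923 in edgeR's test) that was 1.25 without BcorWT replicate 1 and 0.35 without BcorWT replicate 2. Rbl2 (p130) had 16.63 and 18.58 against 9.053 and 14.11 CPM, a log2 fold change of 0.59 (SE 0.41), or 0.32 without BcorWT replicate 1 and 0.96 without BcorWT replicate 2. The activating factors E2f1 and E2f2 lay the other way, with both mutant libraries under both BcorWT libraries and log2 fold changes of -0.45 (SE 0.34) and -0.50 (SE 0.34). With mutant replicate 1 left out these were -0.75 and -0.26, and with mutant replicate 2 left out -0.19 and -0.79. E2f3 (0.02) and E2f4 (0.08) overlapped between groups, as did their partner Tfdp1 (0.84, SE 0.72), at 42 and 37 counts in the mutant and 22 and 8 in BcorWT libraries. For Tfdp1 the value was 2.17 without BcorWT replicate 1 and 0.10 without BcorWT replicate 2. Of the genes that act on p27, Cks1b had a log2 fold change of 0.51 (SE 0.32) with both mutant libraries higher, and Skp2, the ubiquitin ligase subunit, 0.03 (SE 0.39) with overlap. Cdc25a, the phosphatase that activates Cdk2, was at 0.14 (SE 0.31). The second E-type cyclin Ccne2 was at 0.40 (SE 0.54) and cyclin A2, Ccna2, at 0.10 (SE 0.33), both with overlap.

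Genes that E2F factors switch on at the start of S phase served as a readout of the same step. All 20 listed E2F targets were in the table, 0 passed adjusted p in edgeR's test and 0 had an unadjusted p under 0.05. By direction 14 were higher and 6 lower, with a median log2 fold change of 0.12. Slbp, the histone messenger RNA binding protein, had the largest value, chosen after its values were seen. It had 103.9 and 105.8 CPM in mutant and 23.9 and 75.1 CPM in BcorWT libraries, a log2 fold change of 1.07 (SE 0.50, unadjusted p 0.0667 in edgeR's test). Both mutant libraries lay above both BcorWT libraries, of which replicate 1 was by far the lower. The value was 0.48 without BcorWT replicate 1 and 2.13 without BcorWT replicate 2, the latter with an adjusted p of 0.0266 in edgeR's test. With all 4 libraries its unadjusted p was 0.0162 with a replicate block in edgeR, 0.0325 in limma-voom and 0.0362 in DESeq2. Slbp passed adjusted p in none of these, at 0.999 with the block and 0.88 in limma-voom. In edgeR's test without a block its adjusted p was 0.945. Mcm2, a subunit of the replicative helicase, was the lowest of those listed, at 97.03 and 117.9 CPM in mutant and 122.7 and 245.4 CPM in BcorWT libraries (log2 fold change -0.78, SE 0.40, unadjusted p 0.0891 in edgeR's test). That value was -1.20 without BcorWT replicate 1 and -0.19 without BcorWT replicate 2. Mcm5 was at -0.13 (SE 0.36), the replication clamp Pcna at 0.22 (SE 0.32), the licensing factor Cdc6 at 0.10 (SE 0.30) and the ribonucleotide reductase subunit Rrm2 at 0.13 (SE 0.31). In 12 genes of G2 and mitosis, 0 passed adjusted p and 0 had an unadjusted p under 0.05, with 5 higher, 7 lower and a median of -0.11. Mki67, a marker of cycling cells, was at 320.7 and 410.5 CPM in mutant and 230.4 and 322.7 CPM in BcorWT libraries, where the groups overlapped. Cdk1, the mitotic kinase, had 227.7 and 233.9 CPM in mutant and 189.8 and 494.3 CPM in BcorWT libraries, and its partner Ccnb1 a log2 fold change of -0.21 (SE 0.36).

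**Figure D5:**
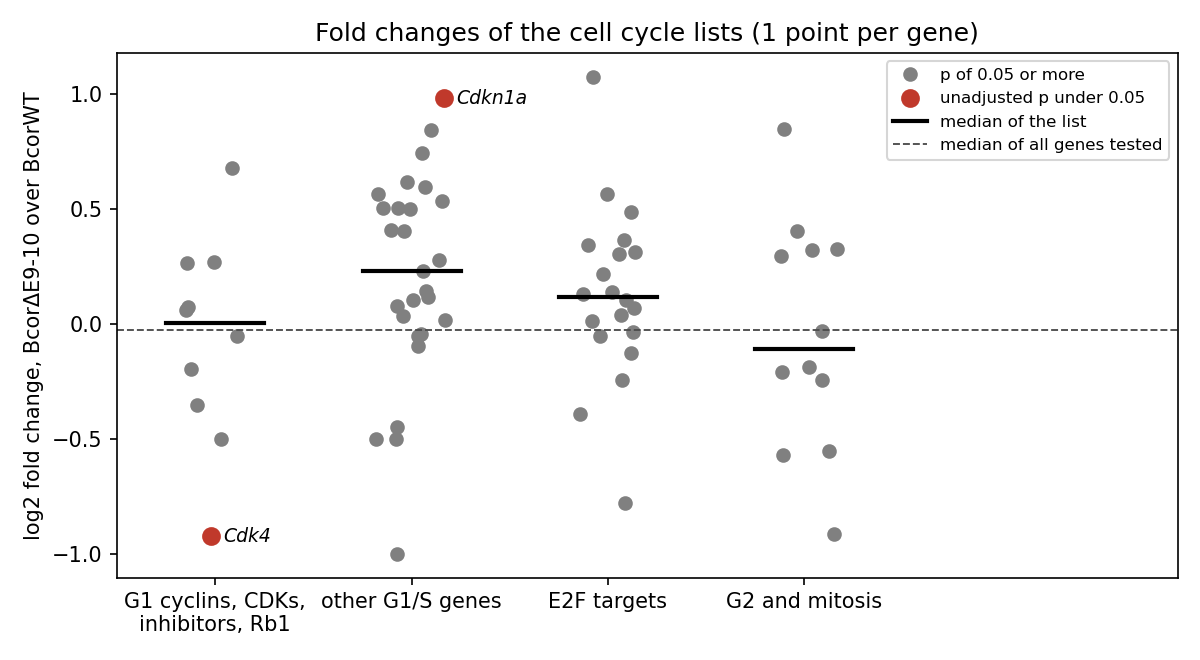
Log2 fold change of BcorΔE9-10 over BcorWT, 1 point per gene, for the 10 G1 genes, 27 other G1/S genes, 20 E2F targets and 12 genes of G2 and mitosis, with a bar at each list's median and a dashed line at the median of all genes (-0.03). The 2 red points, Cdk4 and Cdkn1a, had an unadjusted p under 0.05, and the list medians lay between -0.11 and 0.23.

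Markers of other cell types also differed between these libraries. Of 10 markers of maturing erythroid cells, 6 were in the table and the others were not analysed here. All 6 were higher in both mutant libraries, with summed levels of 103.5 and 92.75 CPM against 28.91 and 51.0 CPM, and 3 had an unadjusted p under 0.05 in edgeR's test, where 16.8% of all genes were higher without overlap and 4.42% had such a p. Of 9 markers of eosinophils, basophils and mast cells, 7 were in the table and all 7 were lower, at 227.7 and 191.0 CPM against 429.9 and 514.7 CPM, 5 of them with an unadjusted p under 0.05, against 17.1% of all genes lower without overlap. No gene of any of the marker lists passed adjusted p in edgeR's test, the lowest being 0.419 among the eosinophil, basophil and mast cell markers. Markers of maturing neutrophils summed to 63400 and 155300 CPM in mutant and 94510 and 143600 CPM in BcorWT libraries, and those of monocytes and dendritic cells to 1404 and 2892 against 1745 and 3896 CPM. Of the 10 neutrophil markers 7 were lower, none without overlap, and of the 8 monocyte and dendritic cell markers 7 were lower, 3 of them without overlap (median log2 fold change -0.86). Megakaryocyte markers (4 of 6 in the table) summed to 107.9 and 140.8 against 109.5 and 265.7 CPM, and all 4 were lower (median -0.70), 1 without overlap and with an unadjusted p of 0.0263 in edgeR's test. The sums were, for B-cell markers (4 of 8), 54.93 to 75.59 CPM over the 4 libraries and for Sca-1-positive stem cell markers (3 of 8) 22.77 to 42.34 CPM. Of the 4 B-cell markers 3 were lower, and all 3 stem cell markers were, none of either list without overlap. T and NK cell markers (2 of 8) summed to 2.218 and 2.608 CPM in mutant and 6.425 and 5.081 CPM in BcorWT libraries, both genes lower and 1 without overlap. The cells had been sorted as Lin-, a gate meant to exclude maturing lymphoid, erythroid and myeloid cells. The part of these cell types in the values of Cdk4, Cdkn2c and Cdkn1a was not tested, and in sorted bulk cells fewer cells of a type and less RNA per cell cannot be told apart.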

How the data were processed

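Gene counts of 4 libraries (2 BcorΔE9-10, 2 BcorWT) were analysed as the authors deposited them, unnormalized; entries that are not whole (Gm4430 in 1 library of each group) made those columns expected counts, taken as estimated counts in the deposited table and rounded to whole numbers here. The authors removed reads of low quality, trimmed with cutadapt (1.7 in the submitters' processing notes), aligned to mm10 with HISAT2, counted with featureCounts of Subread and named limma for differential expression; use of strand is not given in the sources used here. Libraries were scaled by TMM in edgeR 4.0.16 (R 4.3.3) and tested by glmQLFit and glmQLFTest over 12067 genes, with Benjamini-Hochberg adjustment and a threshold of 0.05. The filter filterByExpr removed 0 genes, and log2 fold changes used a prior count of 0.125. The test was checked on simulated data in which libraries of both groups varied alike.

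Shares of counts were compared by two-sided exact permutation tests over libraries (scipy 1.17.1), with 95% Wilson intervals per library. Gene positions came from the GENCODE annotation of GRCm38, promoters from RefSeq tables, and pseudogene copies were searched with blastn 2.17.0; the longest match was Ccnd3-ps with Ccnd3, which was not analysed here.

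The members and all gene lists (30 other G1/S genes, 20 E2F targets, 12 genes of G2 and mitosis, and markers of 9 cell types) were chosen with earlier results of these data known. Named genes were the members, regulators and targets fixed by role, any listed gene with an adjusted p under 0.05, Gm42418 and pseudogene copies. Alternatives were DESeq2's size factors, scaling without Gm42418, other filters, a replicate block, limma-voom (limma 3.58.1), DESeq2 1.42.0, a prior count of 2, leaving out each library, and summed counts for shares. Subtracting Tspan31, leaving out Ccnd3 (with each library left out in turn) and the alternatives for Slbp were added after seeing the data.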

Additional observations from a re-analysis of the deposited data

How the results depend on the processing

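With all 4 libraries, 2 of the 12067 genes passed adjusted p in edgeR's test, and 5 passed with a filter of at least 10 counts in every library, 4 with limma-voom, 43 with DESeq2 and 14 with the replicate block. Without 1 library 6 to 596 genes passed, the 596 without BcorWT replicate 1, and 243 to 3013 genes had an unadjusted p under 0.05 instead of 533. No member passed adjusted p under any alternative. With all 4 libraries kept, each alternative gave 1 member with an unadjusted p under 0.05, Cdk4. In the other lists, leaving out 1 library gave 0 to 2 other G1/S genes, 0 to 1 E2F targets and 0 to 1 genes of G2 and mitosis past adjusted p; without BcorWT replicate 1 these were 2, 1 and 1, and without BcorWT replicate 2 there was 1 E2F target, Slbp. Ccne2 (adjusted p 0.0421, log2 fold change 1.53) and Mcm2 (0.0412, -1.20) were among them without BcorWT replicate 1; without BcorWT replicate 2 these were at -0.25 and -0.19. The cause was not tested; an arm of 1 library is assumed there to vary like the other group.

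Directions turned only with 1 library left out, among them those of the shares of Ccnd1 (-0.46 points), Ccnd2 (3.003) and Ccnd3 (-3.61). The log2 fold changes then ran from -0.35 to 0.60 for Ccnd1, -0.27 to 0.13 for Ccnd3, -0.95 to 0.19 for Ccne1, -0.072 to 0.70 for Cdk2, -0.16 to 0.87 for Cdk6 and -0.26 to 0.50 for Rb1. They ran from -0.25 to 1.53 for Ccne2, -0.091 to 0.31 for Ccna2, -0.94 to 0.13 for Cdkn2d, -0.18 to 0.22 for E2f3, -0.048 to 0.21 for E2f4, -0.16 to 0.26 for Skp2, -0.39 to 0.18 for Mcm5, -1.10 to 0.28 for Cdk1 and -0.50 to 0.15 for Ccnb1. Without turning, they moved by over 1.5 times for Ccnd2 (-0.72 to -0.06), Cdkn1b (-0.35 to -0.06), Cdkn2c (0.35 to 1.08), Rbl1, Rbl2, E2f1, E2f2, Tfdp1, Cks1b (0.30 to 0.74), Cdc25a (0.07 to 0.21), Mcm2, Slbp (0.48 to 2.13), Pcna (0.07 to 0.35), Rrm2 (0.04 to 0.22) and Mki67 (0.18 to 0.67), and for the Ccnd2 share of Ccnd1 and Ccnd2 counts (-6.03 to -0.53 points). The difference in the Cdk6 share of Cdk4 and Cdk6 counts moved in the same way (9.34 to 27.43 points).

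Under the replicate block Cdk4 had a log2 fold change of -0.92 (unadjusted p 0.0394 in edgeR's test). The correlation of deviations from the group mean between same-numbered libraries was -0.0945. With 2 libraries in a group their deviations mirror each other, so both pairs give this 1 value. It cannot decide whether the numbers pair the libraries, and no further check was possible. Without Gm42418 in the scaling, Cdk4 was at -0.94. Tfdp1 has no value under the filter of at least 10 counts.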
